A study of Mus musculus with 2 samples.

Results

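The mitochondrial ribosomal protein genes are the nuclear genes that encode the protein parts of the ribosome inside mitochondria. Members were all genes with an annotated protein-coding transcript whose symbol begins with Mrpl or Mrps followed by a digit, pseudogenes left out, which gave 78 of 55536 annotated genes, 49 of them named for the large subunit (Mrpl) and 29 for the small one (Mrps). Their RNA was measured by total RNA sequencing of heart from B6CASTF1/J mice, the first-generation cross of strains C57BL/6J and CAST/EiJ, all female and aged 14 days. There was 1 group of 2 libraries, each from 300 ng of RNA, with no treatment or altered allele named. The labels name 1 donor for both libraries, and the label of replicate 1 can be read as a pool of 3 females while that of replicate 2 names 1 female. Every SD below (n = 2) is therefore the spread between the libraries, which may be partly technical. A single group allowed no comparison of groups.

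The mitochondrial ribosome makes the 13 proteins that the mitochondrial genome encodes, all of them core parts of the respiratory chain and the ATP synthase. Its RNAs are transcribed from the mitochondrial genome, whereas its proteins are made in the cytosol and imported. It holds more protein and less RNA than its bacterial relative, and many of its proteins have no bacterial counterpart. Heart muscle depends on oxidative phosphorylation, and inherited defects of several of these proteins cause cardiomyopathy.

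Replicates 1 and 2 held 36404376 and 34569708 expected counts, that is, reads divided by a program between genes that share them. Of the labelled tissue's own markers, 7 of 7 cardiomyocyte genes were at 1 TPM or more, with medians of 3359 and 3446 TPM (a level per length of transcript, scaled to the same total in each library). The libraries differed in markers of other cells. The 6 lung genes summed to 100.2 TPM in replicate 1 and 7.27 in replicate 2, nearly all of it Scgb1a1 (97.57 and 5.96). The 5 erythroid genes summed to 24092 and 18484 TPM, the 6 macrophage genes to 84.3 and 65.7, and the 6 thymus and lymphocyte genes to 4.63 and 1.32. The 6 brown fat genes summed to 871 and 886 TPM, most of it Cox7a1 (783.84 and 781.40), a respiratory chain gene that the heart also expresses. Ucp1, the uncoupling protein that defines brown fat, was at 32.61 and 47.76 TPM and Cidea at 32.49 and 39.90, while Ppara was at 21.21 and 15.69, Dio2 at 0.90 and 0.63 and Elovl3 at 0.28 and 0.33. In bulk tissue, fewer cells of a type and less RNA per cell cannot be told apart.

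The genes were at moderate levels that lay close together. Each of the 78 was listed at a mean of at least 1 TPM, and the median over members was 31.9 TPM in replicate 1 and 31.3 in replicate 2 (31.6 ± 0.407, SD, n = 2). The median over the 11720 nuclear protein-coding genes at 1 TPM or more was 9.67 and 9.79 TPM, and 77 of the 78 members lay above it, Mrpl23 being the exception. The typical member stood at percentile 82.3 of those genes. TPM divides by length, and the median length was 971 bases for members against 2408 for those genes. Standing by counts not scaled to length was not computed. Of the 78, 59 lay within 2-fold of the members' own median, 6 were above 100 TPM and 17 were under 20 TPM. Leaving Mrpl23 aside, the highest member was 14.9-fold above the lowest. Together they summed to 3045 and 3264 TPM, or 0.307% and 0.330% of the TPM of annotated genes and 0.708% and 0.759% of that of nuclear protein-coding genes, and took 73166 and 74953 expected counts. Every member except Mrpl23 had 326.74 counts or more in each library.

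**Figure D1:**
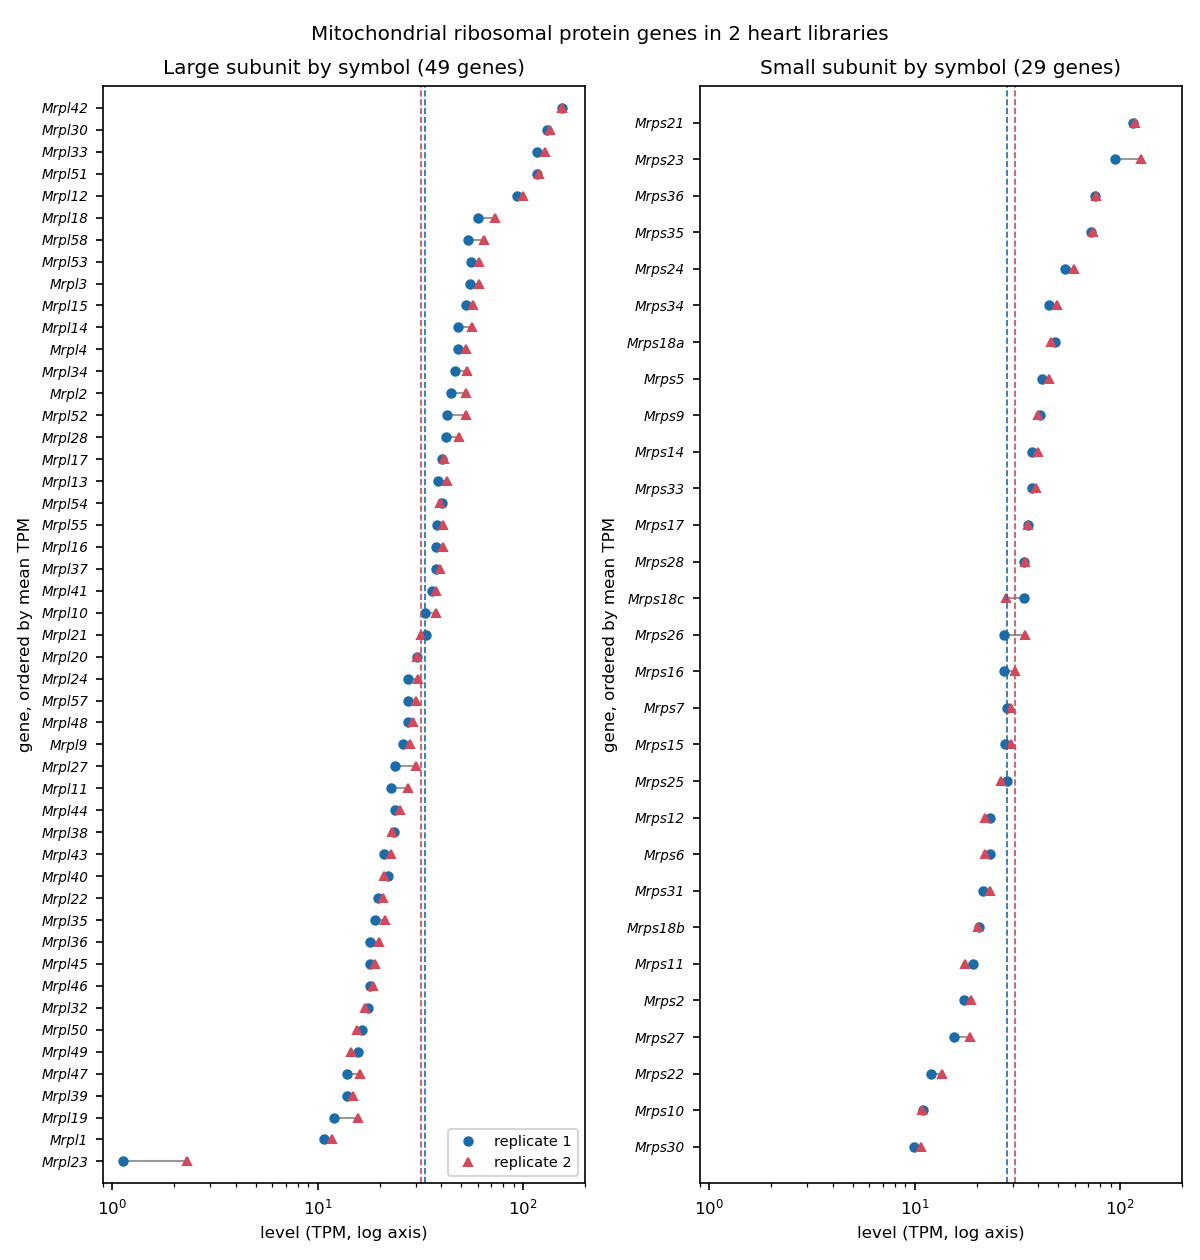
Level of each of the 78 genes in replicate 1 (circles) and replicate 2 (triangles), in TPM on a log axis, ordered by mean, for the large subunit (left) and the small subunit (right) as named by symbol. Dashed lines mark the median of each subunit in each library, between 28.2 and 33.4 TPM, and Mrpl23 stands alone near 1 to 2 TPM.

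Large and small subunit genes were at similar levels. The median of the 49 Mrpl genes was 33.4 TPM in replicate 1 and 31.8 in replicate 2 (32.6 ± 1.15, SD, n = 2), and that of the 29 Mrps genes was 28.2 and 30.7 (29.5 ± 1.73). The log2 ratio of the medians, large over small, was 0.24 in replicate 1 and 0.05 in replicate 2 (0.15 ± 0.14), so its mean was about as large as its spread. Its sign was not stable. A second quantification of the same libraries, made from the raw reads against the same annotation, gave log2 ratios of -0.03 and -0.09, and CPM, counts scaled to the library total but not to length, gave 0.01 and -0.10. Symbols do not follow the structure in 3 cases: Mrps18a and Mrps30 sit in the large subunit, and Mrps36 is now known as a part of the 2-oxoglutarate dehydrogenase complex and not of the ribosome. With Mrps18a and Mrps30 counted as large and Mrps36 left out, 51 large and 26 small subunit genes gave log2 ratios of 0.25 and 0.08.

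Of the large subunit, Mrpl42 was the highest, at 154.31 TPM in replicate 1 and 153.83 in replicate 2. Mrpl42 is a protein of the mitochondrial ribosome with no bacterial counterpart, and its libraries were 0.339 TPM apart as SD. Mrpl30 followed at 130.08 and 134.78 TPM, Mrpl33 at 117.26 and 127.77, and Mrpl51 at 116.59 and 119.07. Mrpl30 and Mrpl33 have bacterial relatives, while Mrpl51 does not. Mrpl33 was above Mrpl51 in both libraries, by little in replicate 1, and their ranges overlapped. Mrpl42 stood above Mrpl30 in both without overlap. In the second quantification Mrpl42 was at 174 and 181 TPM and Mrpl33 at 169 and 183, so their ranges overlapped. Below these 4 came Mrpl12, the factor-binding protein of the stalk, at 92.91 and 99.57 TPM, and Mrpl18, of the central protuberance, at 60.63 and 72.80. In CPM, which is not scaled to length, Mrpl12 was above Mrpl42, at 86.9 and 94.6 against 67.8 and 68.7. Mrpl58, a release factor homologue that became a ribosomal protein, was at 53.74 and 64.55 TPM and Mrpl53 at 55.83 and 60.68. The lowest were Mrpl47 (13.93 and 16.12), Mrpl39 (13.89 and 14.86), Mrpl19 (12.04 and 15.76), Mrpl1 (10.68 and 11.69) and Mrpl23 (1.13 and 2.31 TPM). The 36 between these lay from 15.0 to 58.1 TPM as means.

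Of the small subunit, Mrps21 was the highest, at 115.09 TPM in replicate 1 and 118.69 in replicate 2. Mrps23 was at 94.78 and 125.91 TPM, so its 2 libraries lay on either side of those of Mrps21. In the second quantification Mrps23 was above Mrps21 in both libraries, at 142 and 169 against 130 and 141 TPM. In CPM Mrps23 was also above Mrps21, at 61.3 and 68.1 against 29.5 and 31.0. Mrps36, the gene that does not belong to the ribosome by structure, was at 75.09 and 76.11 TPM and the mitochondria-specific Mrps35 at 72.21 and 74.18. Mrps24 was at 53.93 and 59.57 TPM, Mrps34 at 44.99 and 49.54, Mrps18a at 48.09 and 46.26 and Mrps5 at 41.70 and 45.06. The lowest were Mrps2 (17.37 and 18.87), Mrps27 (15.58 and 18.49), Mrps22 (11.95 and 13.56), Mrps10 (10.95 and 10.81) and Mrps30 (9.95 and 10.70 TPM). The 16 between these lay from 18.4 to 40.3 TPM as means. The 3 paralogues of bacterial protein S18 occupy different places in the ribosome and were at different levels. Mrps18a, in the large subunit, was above Mrps18c, the platform protein nearest to the bacterial one, at 34.22 and 27.72 TPM. Mrps18b, a small subunit protein, was lowest of the 3 at 20.50 and 20.26.

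Grouped by their place in the ribosome, the genes for the exit tunnel rim were lowest in TPM. The 8 exit tunnel genes, around the opening where the new protein leaves, had medians of 18.8 and 19.9 TPM (19.4 ± 0.785, SD, n = 2). Among them Mrpl17 was highest at 40.47 and 41.15 TPM, followed by Mrpl24 at 27.54 and 30.78, Mrpl44 at 23.81 and 25.26 and Mrpl22 at 19.72 and 20.79. This order depended on the quantification. In the second, Mrpl17 was at 24.0 and 25.6 TPM, below Mrpl23, Mrpl22 (37.6 and 37.8), Mrpl24 (31.7 and 32.3) and Mrpl44 (31.4 and 33.4). Mrpl45, which tethers the ribosome to the inner membrane, was at 17.89 and 19.04 TPM. The 5 platform genes came next, at 23.22 and 21.97 TPM (22.6 ± 0.884), a median reached by Mrps6, with Mrps21 far above the other 4 and Mrps11 lowest at 19.26 and 17.55. The exit tunnel and platform ranges did not overlap as deposited. With the pseudogene values described below added to Mrpl23, the exit tunnel median became 21.8 and 23.0 TPM, which overlapped the platform. TPM divides by length, and across members length had a rank correlation (Spearman) of -0.59 with TPM and 0.19 with CPM. In CPM, Mrpl45 was at 28.7 and 32.5 and Mrpl44 at 24.4 and 26.1, against 13.6 and 13.1 for Mrps6. Mrpl22 (9.42 and 9.55) and Mrpl23 (1.23 and 1.77) were below Mrps6. Medians by place were not computed in CPM, so the order of places holds for TPM only.

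The catalytic and decoding centres had the highest medians in TPM. The 4 genes around the peptidyl transferase centre, where amino acids are joined, had medians of 41.1 and 46.9 TPM (44.0 ± 4.09): Mrpl3 was at 54.99 and 61.23, Mrpl2 at 44.39 and 53.00, Mrpl16 at 37.77 and 40.74 and Mrpl27 at 23.88 and 30.10. The 3 genes of the messenger channel and decoding site had medians of 41.7 and 45.1 TPM (43.4 ± 2.38), from Mrps24 and Mrps5, given above, down to Mrps12, the homologue of the bacterial protein that streptomycin resistance maps to, at 23.28 and 22.03. The ranges of these groups overlapped. The second quantification gave the messenger channel and decoding group 37.99 TPM as the mean of its medians and the peptidyl transferase group 60.8, so the place of the former in this order depended on the quantification.

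The remaining places lay between. The 7 genes of the head of the small subunit had medians of 37.2 and 39.1 TPM (38.1 ± 1.38), with Mrps9 at 40.76 and 39.82, Mrps14 at 37.15 and 39.67, Mrps33 at 37.39 and 39.10, Mrps7 at 28.04 and 29.48 and Mrps31 at 21.39 and 23.26. The 3 stalk genes, which recruit the translation factors, had medians of 33.4 and 37.7 (35.6 ± 3.03), set by Mrpl10, with Mrpl11 at 22.76 and 27.65. The 6 genes of the body had medians of 27.3 and 30.0 (28.7 ± 1.90), with Mrps17 at 35.70 and 35.41, Mrps16 at 27.18 and 30.68 and Mrps15 at 27.47 and 29.33. The 7 genes of the central protuberance had medians of 27.6 and 29.2 (28.4 ± 1.11), with Mrpl55 at 38.29 and 40.72, Mrpl48 at 27.59 and 29.16, Mrpl38 at 23.58 and 22.88, Mrpl40 at 21.95 and 21.12 and Mrpl46 at 17.92 and 18.51. Stalk and head overlapped in range, as did body and central protuberance.

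**Figure D2:**
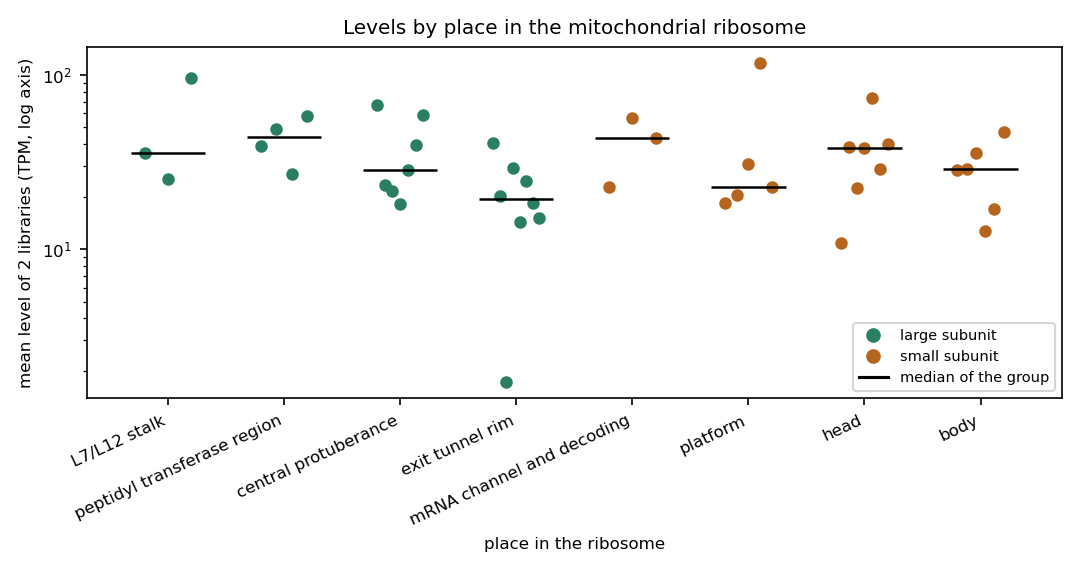
Mean level of 2 libraries (TPM, log axis) of the genes assigned to 8 places in the mitochondrial ribosome, large subunit in green and small in brown, with a line at each group's median. Group medians run from 19.4 TPM at the exit tunnel rim to 44.0 in the peptidyl transferase region, and the low point of the exit tunnel group is Mrpl23.

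Genes assigned a bacterial counterpart had a slightly higher median than those assigned as mitochondria-specific. The 46 former had medians of 33.9 and 33.0 TPM (33.5 ± 0.636, SD, n = 2) and the 31 latter 27.6 and 29.2 (28.4 ± 1.11), a gap beyond the spread between libraries. The second quantification kept this order, at 44.6 against 38.5 TPM as means of the library medians. In the large subunit the medians were 37.5 ± 2.41 for 30 genes and 28.4 ± 1.11 for 21. In the small subunit they were 30.6 ± 0.668 for 16 genes and 29.1 ± 1.94 for 10, which overlapped. Single genes ranged far more widely, from 1.72 to 132 TPM among all with a counterpart and from 10.3 to 154 among the mitochondria-specific ones. Counted among the mitochondria-specific were Mrps18a and Mrps18b, paralogues of bacterial S18, and Mrpl58, a release factor homologue.

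The other parts of the mitochondrial translation system were mostly lower. The mitochondrial ribosome has 5 further proteins listed under other names, and their median was 40.4 and 43.4 TPM, in the range of the members: Ptcd3 was at 51.29 and 48.56, Dap3 at 48.35 and 49.71 and Gadd45gip1, the lowest, at 9.61 and 10.32. In the second quantification Dap3 was above Ptcd3, at 89.8 and 96.6 against 55.2 and 52.7 TPM. The 25 assembly factors had medians of 8.64 and 9.16 TPM, led in the first quantification by the RNA helicase Dhx30 at 23.76 and 29.96. In the second, Mterf3 was above Dhx30, at 33.1 and 35.5 against 25.2 and 29.9. The 17 aminoacyl-tRNA synthetases of mitochondria had medians of 8.66 and 9.12, led in the first quantification by Iars2 at 29.16 and 31.83. In the second, Lars2 was above Iars2, at 71.5 and 58.3 against 31.2 and 34.5. Among 10 translation factors, at 17.1 and 18.1, the elongation factors Tufm (121.90 and 126.11) and Gfm1 (85.54 and 88.12) were near the top members, while the release factor Mtrf1 was at 2.32 and 1.83. Of 9 genes for mitochondrial transcription and RNA stability, with medians of 21.4 and 21.7, Lrpprc (62.89 and 65.99) and its partner Slirp (58.52 and 59.18) were highest. The 9 regulators of mitochondrial biogenesis had medians of 16.4 and 14.5, with the nuclear receptor Esrra at 53.45 and 58.11 and its coactivator Ppargc1a at 50.24 and 44.82.

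Both the products of this ribosome and its cytosolic relative were more abundant as RNA. The cytosolic ribosomal protein genes, 78 of 80 at 1 TPM or more, had medians of 203 and 213 TPM. Nuclear genes of oxidative phosphorylation, 82 of 83 at 1 TPM or more, had medians of 445 and 451. Those 13 genes that the mitochondrial genome itself carries for proteins had medians of 7724 and 6908. The ribosome's own RNAs, mt-Rnr1 of the small and mt-Rnr2 of the large subunit, were at 57661 and 53386 and at 112788 and 106093 TPM, a log2 ratio of 0.97 in replicate 1 and 0.99 in replicate 2. The submitters' spike-in label is for libraries reduced in ribosomal RNA, and what that step did to mt-Rnr1 and mt-Rnr2 was not tested.

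Mrpl23 was the lowest member in the first quantification and above the members' median in the second. Its protein lines the exit tunnel. In the first quantification the gene (chromosome 7, 142532686 to 142540747, plus strand, mm10) had 44.64 expected counts in replicate 1 and 60.81 in replicate 2. A processed pseudogene, Mrpl23-ps1, which is a copy of the spliced messenger without introns on another chromosome (chromosome 2, 74591330 to 74591909, minus strand), had 627.36 and 625.19. The pseudogene thus held 93.4% and 91.1% of the counts of the pair. The second quantification gave Mrpl23 698.5 and 721.0 counts and listed the pseudogene at 0 in both libraries. At gene level Mrpl23 was at 1.13 and 2.31 TPM in the first and at 60.7 and 67.8 in the second, 37.3-fold apart as means. In the annotated transcripts the copy and the messenger are identical over 540 bases with 0 mismatches, which takes in all 441 bases from start to stop codon. The first 120 of those bases are printed for both, from GENCODE M21, with the start codon in capitals, to show that a read from here fits either place:
Mrpl23-201: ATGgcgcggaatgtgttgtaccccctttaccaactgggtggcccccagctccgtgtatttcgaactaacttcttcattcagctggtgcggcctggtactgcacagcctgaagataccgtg
Mrpl23-ps1-201: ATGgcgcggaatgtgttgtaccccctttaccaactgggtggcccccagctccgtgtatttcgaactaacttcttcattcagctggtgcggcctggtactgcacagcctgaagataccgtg
The level of Mrpl23 therefore depended on the quantification, and which locus the RNA came from was not tested.

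A like case of smaller size was Mrpl48, of the central protuberance. Its processed pseudogene Mrpl48-ps aligned over its whole 636 bases with the coding part of the transcript Mrpl48-208, with 12 mismatches (98.1% identity). It held 118.92 and 99.12 counts in replicates 1 and 2, or 10.9% and 9.14% of the pair's counts, against 969.08 and 985.88 for Mrpl48. The second quantification listed it at 0 as well. The 3 processed pseudogenes of Mrps36 had at most 2.39 counts in a library.

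The means of 70 of the 78 members differed between the quantifications by more than the spread between libraries. That spread can be very small, as for Mrps10 at 0.099 TPM (SD). The shares of all genes past their own spread, or higher in the second quantification, were not computed. The second gave 74 of 78 a higher TPM, by a median of 1.26-fold, against 1.19-fold over nuclear protein-coding genes. More than 2-fold higher in the second were 2 of 78, Mrpl23 and, at 2.50-fold, Mrpl27, against 2.17% of nuclear protein-coding genes. Mrpl27, whose bacterial relative reaches into the peptidyl transferase centre, was at 23.88 and 30.10 TPM in the first and 61.8 and 73.3 in the second. Next came Mrpl3 at 1.96-fold, Mrpl35 at 1.93-fold and Mrps33 at 1.91-fold. Those lower in the second were Mrpl17 at 0.608-fold, Mrps5 at 0.876-fold, Mrpl15 at 0.938-fold and Mrpl1 at 0.951-fold, and Mrps30 was level at 1.00-fold.

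**Figure D3:**
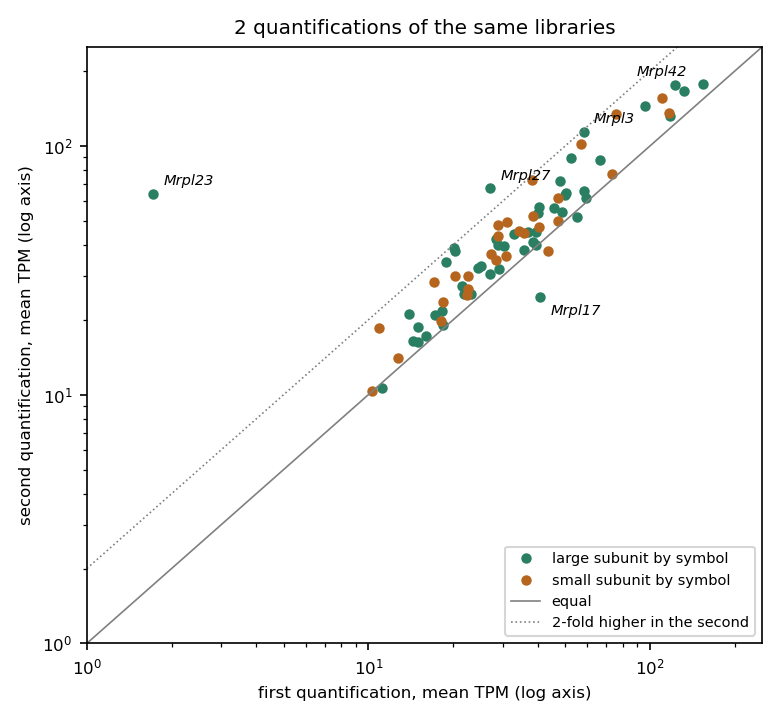
Mean TPM of each of the 78 genes in the first (x axis) and second (y axis) quantification of the same 2 libraries, both on log axes, with lines at equality and at a 2-fold difference. Points gather between the lines, Mrpl23 lies 37.3-fold and Mrpl27 2.50-fold above equality, and Mrpl17 lies below it.

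For many members the leading transcript was not one annotated as protein-coding. The transcript with the highest TPM was protein-coding in 63 of the 78 genes and not in 15 (19.2%), whereas 7.03% of the 5773 nuclear protein-coding genes at 10 TPM or more had a noncoding leader. In the second quantification it was 18 members (23.1%) against 8.83%, and 14 members were common to both. By annotated type, 6 of the 15 were processed transcripts, 5 were targets of nonsense-mediated decay and 4 had a retained intron. They came from both subunits, 9 large and 6 small. The typical member still had a median of 94.6% of its TPM in protein-coding transcripts, but 19 members had under 50% and 8 under 10%. These counts rest on means of the libraries, and no share over all genes was computed for them. Of the 19, Mrpl23 was at 0% and 66.2% in replicates 1 and 2, and Mrps11 at 40.9% and 58.5%.

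The lowest coding share was that of Mrps26, a mitochondria-specific small subunit protein, at 3.35% and 2.63% in replicates 1 and 2, with nearly all the rest in the retained-intron transcript Mrps26-201. Mrpl57 was at 3.55% and 4.71%, Mrpl51 at 5.11% and 4.49%, Mrps16 at 5.13% as a mean (SD 0.174) and Mrpl15 at 5.63% and 4.68%. Mrps25 was at 7.55% and 8.46% and Mrpl32 at 7.59% and 8.84%. These 7 were also under 20% in the second quantification. Mrps14 was at 7.11% and 7.59% in the first but 91.0% and 100% in the second, which chose another transcript as leader. The reverse held for Mrpl17, at 78.6% and 79.8% in the first and 14.2% and 13.9% in the second. Other members with a noncoding leader in the first were Mrps24 (12.6% and 14.3% coding), Mrpl3 (12.7% and 14.7%), Mrpl19 (29.1% and 27.2%), Mrpl35 (32.3% and 32.8%), Mrpl13 (37.8% and 37.1%), Mrpl47 (41.3% and 37.2%) and Mrps35 (49.2% and 42.8%).

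The noncoding label does not mean that these transcripts lack the coding bases. In 14 of the 15, the noncoding leader was shorter than the highest coding transcript of the gene. Over all 15, the medians were 700 bases against 2999. In 6 of them it held at least 90% of the coding bases of that transcript: 100% in Mrps26, Mrpl57, Mrps14 and Mrps24, 97.5% in Mrps16 and 96.6% in Mrpl32. In the other 9 it held less, such as 59.3% in Mrpl15, 58.9% in Mrpl47, 53.0% in Mrps25 and 37.7% in Mrpl19. TPM divides by length, so reads placed on a short model count for more than the same reads on a long one, and which model the reads came from was not tested.

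**Figure D4:**
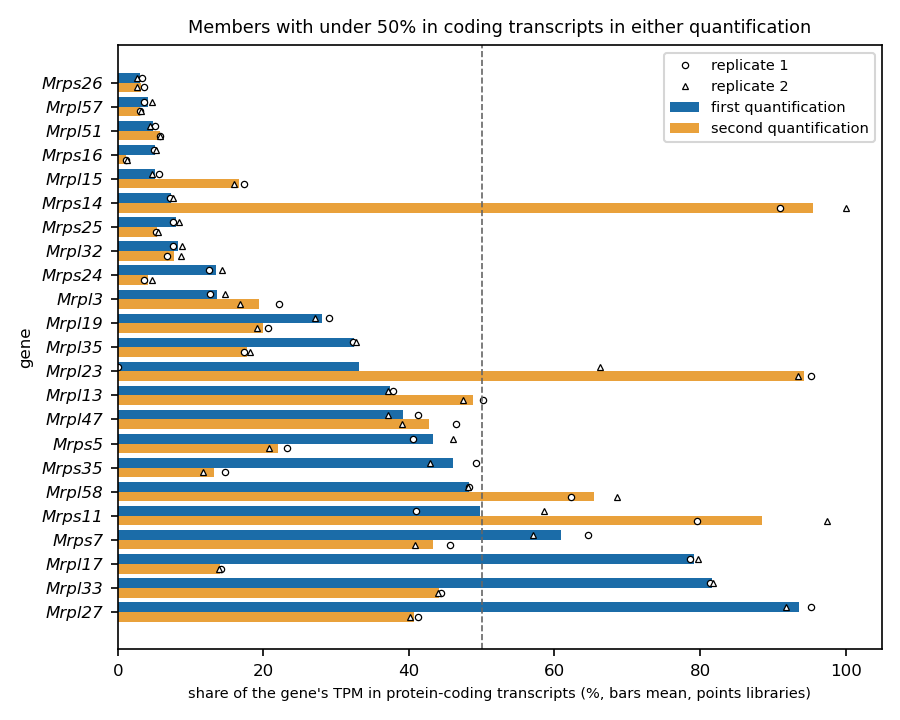
Share of each gene's TPM in protein-coding transcripts (percent, 0 to 100) in the first (blue) and second (orange) quantification, for members under 50% in either; bars are means of 2 libraries, circles and triangles are replicates 1 and 2, and the dashed line is at 50%. Mrps26, Mrpl57 and Mrpl51 are under 10% in both, while Mrps14, Mrpl23, Mrpl58, Mrps11, Mrps7, Mrpl17, Mrpl33 and Mrpl27 fall on different sides of the line in the 2 quantifications.

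Many of the genes share their start region with a neighbour. For 33 of 78 members (42.3%) another protein-coding gene began within 1000 bases on the opposite strand and ran the other way, against 16.3% of the 11720 nuclear protein-coding genes at 1 TPM or more. The median distance between the starts was 128 bases. In 26 of the 33 the neighbour was at the lower level, and in 6 it was under 1 TPM. For example, Mrpl30 was at 130.08 and 134.78 TPM and Mitd1, 66 bases away, at 2.36 and 2.81. In 9 the neighbours were within 2-fold of each other. The bodies of 15 overlap the neighbour, and the strand setting used in counting was not given in the sources used here. For these counts of neighbours no share over other such pairs was computed. The typical member stood at percentile 82.3 of those 11720 genes, so a lower neighbour is not particular to these pairs on these values.

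Values for 6 pairs, picked after they were seen for what the neighbour is known to do, follow. Mrps12 starts 172 bases from Sars2, the mitochondrial seryl-tRNA synthetase (6.83 and 6.61 TPM). Mrpl43, at 21.07 and 22.65 TPM, starts 779 bases from Twnk, the helicase of mitochondrial DNA (9.01 and 9.78). Mrpl36 (17.93 and 19.79) starts 29 bases from Ndufs6, a subunit of complex I, at 421.72 and 450.95 TPM, and Mrpl47 starts 615 bases from Ndufb5, another, at 329.53 and 325.04. Mrpl49, at 15.64 and 14.45, starts 59 bases from Fau, which encodes a protein of the cytosolic ribosome, at 249.72 and 268.13. One pair joined 2 members, Mrps11 and Mrpl46 on chromosome 7, whose starts lie 412 bases apart with their ends overlapping, at 19.26 and 17.55 and at 17.92 and 18.51 TPM. The 78 genes were otherwise scattered over 17 chromosomes, with 11 of them on chromosome 11. Members with such a neighbour had a median of 28.4 ± 1.11 TPM (n = 33 genes) and those without 38.1 ± 1.38 (n = 45), and in the second quantification medians were 37.9 and 41.3 with and 44.5 and 45.6 without.

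Letters of the motifs of 3 factors tied to nuclear mitochondrial genes were common near the starts. Windows from 250 bases before to 50 after the start were read from RefSeq (GRCm38.p6) for the 69 members that matched by symbol and searched on both strands. The NRF1 motif (GCGCA, any base, then GCGC) was in 13 (18.8%), against 7.17% of 17491 protein-coding genes with a window of that length. The ETS motif (CCGGAAGT), bound by the factor GABP among others, was in 12 (17.4%) against 5.69%, and the YY1 motif (AAGATGGC) in 12 (17.4%) against 3.57%. At least 1 of the 3 was in 34 (49.3%) against 15.1%, in 23 of 43 large and 11 of 26 small subunit genes. The CCAAT box, at 39.1% against 42.3%, was not more common, and TATAAA was in 5 (7.25%) against 14.8%. The 17491 genes were taken at any level, whereas every member was at a mean of at least 1 TPM. No share over expressed genes alone was computed for the motifs. Members with and without any of the 3 motifs had medians within the spread of each other, 29.0 ± 1.64 and 29.5 ± 1.73 TPM. Of the factors, Nrf1 was at 7.04 and 7.05 TPM, Gabpa at 17.36 and 17.26 and Yy1 at 16.43 and 14.53.

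Windows of 4 members are printed 5′ to 3′ on the strand of the gene, with motif letters in capitals. They are the highest gene of each subunit by mean TPM in the first quantification and 2 of the genes with a neighbour described above. Each holds the letters of 1 of the 3 factors. The window of Mrpl42 also holds a CCAAT box, which is not in capitals. Mrpl42 (chr10:95501900-95502199, minus strand) holds the YY1 letters just after its start, and Mrps21 (chr3:95871465-95871764, minus) the NRF1 letters on the other strand. Mrpl43 (chr19:45006393-45006692, minus) holds the ETS letters, and Mrps11 (chr7:78782881-78783180, plus) the YY1 letters on the other strand:
Mrpl42: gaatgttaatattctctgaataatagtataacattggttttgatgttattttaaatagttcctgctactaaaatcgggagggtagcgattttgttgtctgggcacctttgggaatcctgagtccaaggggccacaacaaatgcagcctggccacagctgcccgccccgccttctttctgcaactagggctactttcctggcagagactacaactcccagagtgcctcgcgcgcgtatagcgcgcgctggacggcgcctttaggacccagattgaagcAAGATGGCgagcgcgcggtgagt
Mrps21: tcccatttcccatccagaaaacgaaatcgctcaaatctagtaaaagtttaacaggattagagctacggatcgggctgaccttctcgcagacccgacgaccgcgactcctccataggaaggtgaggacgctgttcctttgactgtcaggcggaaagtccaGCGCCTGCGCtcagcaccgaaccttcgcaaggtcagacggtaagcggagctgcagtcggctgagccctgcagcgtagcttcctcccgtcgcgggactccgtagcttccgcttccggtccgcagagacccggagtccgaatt
Mrpl43: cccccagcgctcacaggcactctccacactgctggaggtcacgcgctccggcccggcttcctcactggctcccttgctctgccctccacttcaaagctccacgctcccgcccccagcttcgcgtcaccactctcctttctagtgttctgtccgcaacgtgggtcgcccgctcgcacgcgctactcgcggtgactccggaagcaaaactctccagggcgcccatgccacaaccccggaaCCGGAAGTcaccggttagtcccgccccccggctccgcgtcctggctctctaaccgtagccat
Mrps11: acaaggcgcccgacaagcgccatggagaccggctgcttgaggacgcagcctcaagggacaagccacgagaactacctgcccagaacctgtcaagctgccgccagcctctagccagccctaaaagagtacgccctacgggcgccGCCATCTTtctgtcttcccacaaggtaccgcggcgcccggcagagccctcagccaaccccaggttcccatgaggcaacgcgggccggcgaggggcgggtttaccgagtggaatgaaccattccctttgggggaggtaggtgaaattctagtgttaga
A match is a run of letters and not a measured binding site.

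Between the libraries the members differed little, with a lean toward replicate 2. Differences were taken as log2(TPM + 1), replicate 2 minus replicate 1, after the median over genes at 1 TPM or more (0.03) was removed, a scale that understates changes of low genes. More than 1.2-fold apart were 7 of 78, of which 6 were higher in replicate 2 and 1 in replicate 1, and 18.7% of 13043 genes passed the same fold (8.29% and 10.5% in the respective directions). The members' differences had an SD of 0.14, against 0.31 over all those genes. No share or SD over genes of like level was computed. Any amount higher in replicate 2 were 56 of 78 members, 39 of 49 large and 17 of 29 small, against 50% of all genes, with a median difference of 0.07. By a rule of at least 2-fold, a mean of at least 50 counts and deposited intervals that do not overlap, 0 of 78 were called, against 0.349% of 12876 genes. The intervals alone, on TPM without the median removed, did not overlap for 8 of 78 members, no larger a share than the 12.1% of genes. These were Mrps23, Mrpl18, Mrpl58, Mrpl2, Mrpl28, Mrpl10, Mrps26 and Mrpl27. All were higher in replicate 2, and the 12.1% was not split by direction.

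Furthest up in replicate 2 was Mrpl23, at a log2 difference of 0.61, on 44.64 and 60.81 counts, and its ratio of CPM, 1.44 with a 95% interval of 0.959 to 2.16, took in 1, that is, no difference. Mrps23 differed by 0.38, from 94.78 to 125.91 TPM, but its counts differed less, 2219 against 2341, a CPM ratio of 1.11 (1.05 to 1.18). Mrpl19 was up by 0.34 (12.04 and 15.76 TPM), Mrps26 by 0.31 (27.17 and 34.55), Mrpl27 by 0.30 (23.88 and 30.10) and Mrpl52 by 0.27 (42.71 and 52.76). For Mrps26 the CPM ratio was 1.27 (1.15 to 1.39) and for Mrpl19 1.26 (1.13 to 1.41), so both excluded 1 by counting error, which is the only error these intervals cover. Furthest down was Mrps18c at -0.32 (34.22 and 27.72 TPM, 459 and 399 counts), followed by Mrps11 at -0.15, Mrpl49 at -0.13, Mrps25 at -0.12 and Mrpl21 at -0.11.

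Other groups differed in both directions between the libraries. Nuclear oxidative phosphorylation genes had a median difference of 0.03, with 57 of 82 higher in replicate 2, and cytosolic ribosomal protein genes 0.04, with 53 of 78. The 13 messengers encoded in mitochondria had a median of -0.17, with 0 of 13 higher in replicate 2. The 6 endothelial and fibroblast markers had -0.08, with 1 of 6 higher in replicate 2, and the 9 regulators of biogenesis -0.02, with 4 of 9. Lung, erythroid, macrophage and lymphocyte marker sums, given above, were lower in replicate 2, and of the brown fat genes Ucp1 (0.51) and Cidea (0.26) were higher and Ppara (-0.44) lower. Their part in the members' lean toward replicate 2 was not tested.

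**Figure D5:**
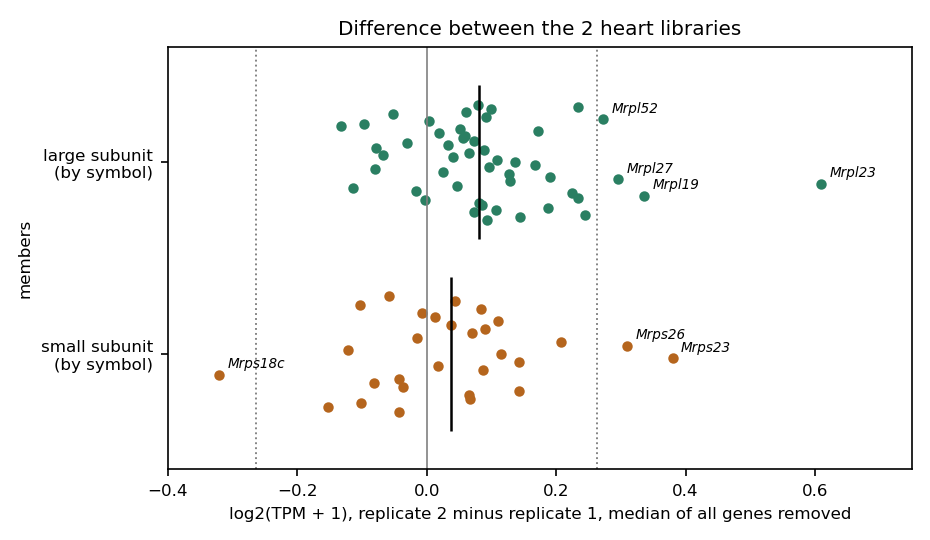
Difference between the libraries for each of the 78 genes, log2(TPM + 1) of replicate 2 minus replicate 1 with the median of all genes removed, small subunit below and large above. Black lines are medians (0.04 and 0.08), dotted lines mark 1.2-fold, and 7 named genes lie outside them, 6 to the right and Mrps18c to the left.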

How the data were processed

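Total RNA sequencing of 2 heart libraries was analysed from deposited tables, quantified against mm10 and GENCODE M21 per the deposited readme files. Which programs ran, and in what version, was not given in the sources used here. Values of the first quantification came from a transcriptome alignment: expected counts not normalized by the authors, TPM, posterior mean TPM with interval bounds (treated as a score) and, for transcripts, the percent they take of their gene's TPM, per the file headers. The second, from raw reads, holds transcript TPM and estimated counts as deposited by the authors, and was summed per gene here. The animals carry CAST/EiJ alleles that mm10 lacks, and the treatment of their reads was not given in the sources used here.

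Rows other than annotated genes took 0.568% and 0.611% of the counts in replicates 1 and 2 and were left out. The libraries held 36404376 and 34569708 expected counts, and intervals (95%, exact, from how a gene's counts split between libraries) cover counting error only. With 1 group of 2 libraries no test was made, so values are per library with mean ± SD (n = 2). Differences between libraries used a pseudocount of 1 and genes at 1 TPM or more on average. The rule of size was tested on simulated counts with counting error only, so its error rates at the spread between these libraries were not tested. Places and origins of the proteins were assigned from textbook structure. The members, lists and rules were chosen with earlier results of these data known. Named are the 8 highest and 5 lowest genes of each subunit, members of the 8 places, the 5 furthest apart in each direction between libraries and between quantifications, members with a noncoding leading transcript, Mrps18a to Mrps18c, Mrps30 and Mrps36, and of other lists their extremes; genes with a head-to-head neighbour were picked after their values were seen.

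Alternatives were the second quantification, posterior mean TPM, CPM, TMM scaling with edgeR 4.0.16 and size factors of DESeq2 1.42.0 on rounded expected counts (R 4.3.3), other pseudocounts and filters, and leaving out each library. Alternatives that leave out Mrpl23 or add its pseudogene, and those for each single member, were chosen after seeing the data. Python 3.11.15, pandas 2.3.3, numpy 2.4.6, scipy 1.17.1 and matplotlib 3.10.9 were used.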

Additional observations from a re-analysis of the deposited data

How the results depend on the processing

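Levels moved mainly with the quantification. In the second quantification the large and small subunit medians were 41.2 and 43.0 TPM, the summed level 4196 TPM, and the log2 ratio of large over small -0.060, against -0.049 from CPM, so the sign of that ratio changed under both. From protein-coding transcripts alone the medians were 25.1 and 21.3 TPM. In the second quantification the medians by place were 60.8 TPM for the peptidyl transferase region, 49.2 for the head, 42.2 for the central protuberance, 38.9 for the body, 37.99 for the messenger channel and decoding site, 31.3 for the platform and 28.3 for the exit tunnel rim. By origin they were 44.6 TPM for genes assigned a bacterial counterpart and 38.5 for those assigned as mitochondria-specific. In the same order they were 44.7 and 40.0 in the large and 44.0 and 36.6 in the small subunit. The comparison lists stood at 57.9 TPM for ribosome proteins named otherwise, 10.5 for assembly, 19.9 for translation factors, 11.6 for the synthetases, 29.0 for transcription and stability, 21.5 for regulators, 303 for the cytosolic ribosome and 588 for oxidative phosphorylation. The cause of these shifts was not tested.

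Without Mrpl23 the large subunit and exit tunnel medians were 34.2 and 20.3 TPM, and with the pseudogene added 35.7 and 22.4. Over nuclear protein-coding genes alone the members' share of TPM was 0.733%, against 0.318% over annotated genes. With CPM scaled by DESeq2 size factors in place of TPM, 2 members, Mrps26 and Mrpl23, were more than 1.2-fold apart, against 14.5% of genes. Without a filter on level 8 of 78 were, against 7.11% of all annotated genes. Of those 55536 genes, 13043 were at 1 TPM or more, as every member was. The pseudocount shrinks differences below that level, so these shares cannot be compared. Under the other alternatives 5 to 7 members were more than 1.2-fold apart, against 7.74% to 24.8% of genes. In the second quantification the 5 shared Mrpl52 and Mrpl19 with those reported. Leaving out either library moves a mean of 2 by less than its SD by construction, and 61 and 63 members had a coding leader in replicates 1 and 2 alone. No paired analysis was possible because there was 1 group. At these depths a member with about 45 counts, Mrpl23, could not be compared between the libraries.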
